A study of Homo sapiens with 16 samples.

Results

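The surface and coreceptor genes of the T lineage were examined in 2 lines of T-lineage acute lymphoblastic leukemia (T-ALL) after knock-down of USP7, which encodes a deubiquitylating enzyme. The 10 genes, CD2, CD4, CD5, CD6, CD7, CD8A, CD8B, CD27, CD38 and CD44, were chosen by symbol, and all 10 were found among the 57820 genes of the count table. The libraries came from Jurkat and HSB-2, established human lines of the TAL1 subtype with intact USP7. Each line gave 4 groups of 2 libraries: wild-type cells, scrambled control cells, and cells transduced with lentiviral USP7 shRNA-4057 or USP7 shRNA-4058, which target different exons. The shRNA cells were sorted for GFP or selected with puromycin, and which was used for these libraries is not given in the sources used here. The labels name the control a scrambled siRNA, while the description of the series names it an shRNA scramble. Whether replicates were separate cultures is not stated, so p-values measure only the spread between these libraries. Levels are TMM-normalized CPM (counts scaled to library size), and a gene was called when its adjusted p in edgeR was under 0.05.

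T-cell precursors in the thymus pass through ordered stages that are read from these surface proteins. CD7 is among the first to appear, with CD2 and CD5 following. The coreceptors CD4 and CD8 are absent from the earliest cells, are carried together by cortical thymocytes and are then kept singly by mature helper and cytotoxic cells. CD44 marks early progenitors and returns on activated and memory cells, CD38 is high on cortical thymocytes, and CD27 and CD6 increase as thymocytes mature. E proteins such as E2A and HEB, which TAL1 opposes, bind the E-box CANNTG in genes of this lineage.

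Total counts lay between 86.9 and 110.3 M (mega) in Jurkat and between 76.6 and 235.5 M in HSB-2. USP7 was lowered as labelled: it was at 384 and 387 CPM in the Jurkat scrambled libraries, 140 and 145 CPM with shRNA-4057 and 244 and 242 CPM with shRNA-4058. The HSB-2 values were 227 and 220, 144 and 149, and 162 and 156 CPM in the same order. The 6 T-lineage markers (CD3D, CD3E, CD3G, CD247, LCK and CD7) were detected in every library, and their summed level ran from 1663 to 2306 CPM in Jurkat and from 2101 to 3140 CPM in HSB-2. With both hairpins pooled against scrambled cells, 4 of these 6 were lower in Jurkat, where 28% of genes were called. In HSB-2, where 38.1% of genes were called, 6 of 6 were higher. The scrambled control had itself moved: in Jurkat the same 4 (CD7, LCK, CD3D and CD3E) were called higher in scrambled than in wild-type cells. In HSB-2, 5 (all but CD247) were called lower in scrambled than in wild-type cells. In these comparisons 25.9% (Jurkat) and 34.1% (HSB-2) of genes were called. CD7 is also a member. In HSB-2 the called members rose as well, whereas in Jurkat 4 members were lower and 2 higher. Markers of natural killer, erythroid and epithelial cells did not exceed 1.53 CPM when summed over a list. Among B-lineage and myeloid markers, CD79A stood at 62.7 CPM and CEBPE at 105 CPM in Jurkat scrambled cells, with less of both in the other Jurkat groups, and CEBPE was also highest in scrambled cells of HSB-2 (64.5 CPM), while MPO, LYZ and CSF1R were near 0. The Jurkat scrambled libraries also held more of their counts in their 10 most abundant genes (14.9% and 17.0%) than the other libraries did (8.16% to 12.1%). The part of these differences in the results was not tested. In bulk RNA, fewer cells carrying a transcript and less of it per cell cannot be told apart.

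Wild-type cells of the lines differed most in CD4, CD8B, CD2 and CD44. All 10 genes were called between HSB-2 and Jurkat wild-type cells, in a comparison where 68.1% of 23063 genes were called, with 5 higher in HSB-2 (CD5, CD6, CD7, CD8A and CD44) and 5 lower (CD2, CD4, CD8B, CD27 and CD38). CD44, a hyaluronan receptor, had 205 and 208 CPM in HSB-2 and 0.180 and 0.222 CPM in Jurkat, which rested on only 21 and 20 counts. Its log2 difference of 10.02 ± 0.07 (SE) was the widest with measurable counts on both sides. CD4, the coreceptor for MHC class II, ran the other way, at 20.1 and 21.3 CPM in Jurkat against 0.127 and 0.0841 CPM in HSB-2 (log2 difference -7.49 ± 0.13). CD8B had 230 and 173 counts in Jurkat and 0 counts in both HSB-2 wild-type libraries, so that it was at least 94.9-fold lower in HSB-2, against a floor of 3 counts per library. CD8A was present in both lines, at 1.42 and 1.33 CPM in Jurkat and 2.79 and 2.50 CPM in HSB-2. In scrambled cells this difference in CD8A was not called (log2 0.05, adjusted p = 0.86), and that of CD38 turned from -0.21 in wild-type cells to 0.55 in scrambled cells (adjusted p = 5.5e-11).

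Per kilobase of merged exons, the order in Jurkat wild-type cells was CD2 (68.2 and 66.7 CPM per kb), CD5, CD7, CD6, CD38, CD4, CD27, CD8B, CD8A and CD44 (0.0180 and 0.0222). In HSB-2 it was CD7 (86.5 and 85.0), CD5, CD6, CD44, CD38, CD2, CD27, CD8A, CD4 and CD8B. The values of neighbours did not overlap in these libraries except for CD2 (2.37 and 1.86) and CD27 (2.04 and 1.87) in HSB-2. With the longest transcript in place of merged exons, CD7 (48.4 and 52.0) stood above CD5 (42.7 and 43.8) in Jurkat, CD6 (65.2 and 66.9) stood above CD5 (60.5 and 59.6) in HSB-2, and CD8A (0.466 and 0.438) stood above CD8B (0.410 and 0.401) in Jurkat, so these 3 orders depend on the gene model. Both lines thus had CD5 and CD7 among their most abundant transcripts of the set, whereas CD2 led in Jurkat and stood below CD38 in HSB-2.

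**Figure D1:**
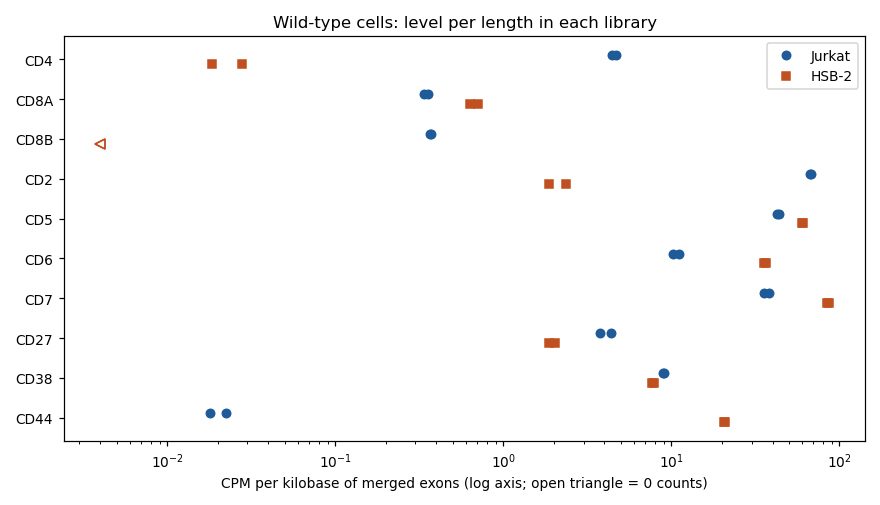
Level per kilobase of merged exons of each gene in wild-type cells, on a log axis, with circles for the 2 Jurkat and squares for the 2 HSB-2 libraries. CD44 is at the left in Jurkat and near 20.6 in HSB-2, CD4 and CD2 are higher in Jurkat, and CD8B has 0 counts in HSB-2 (open triangle).

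Genes of the cortical stage separated the lines in the same comparison: all 9 of CD1A to CD1E, RAG1, RAG2, PTCRA and DNTT were lower in HSB-2, where DNTT, the terminal transferase, was at 0.0798 CPM against 222 CPM in Jurkat. Of 7 early-precursor genes tested, 4 were higher in HSB-2 (KIT, LYL1, LMO2 and HHEX), and 2 were lower (CD34 and BCL11A). Of the mature-stage genes reported here, CCR7 and CD52 were higher in HSB-2 and IL7R, S1PR1, KLF2 and CD28 were lower.

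Promoter windows are shown for CD2, CD38 and CD44, the genes whose response to USP7 shRNA differed most between the lines among those with a RefSeq window, with every E-box (CANNTG, which reads the same on both strands) in capitals. Windows run from 250 bases before to 50 bases after the start on the gene's strand (RefSeq, GRCh38.p14): chr1:116754180-116754479 (+) for CD2, chr4:15778078-15778377 (+) for CD38 and chr11:35138921-35139220 (+) for CD44.
CD2: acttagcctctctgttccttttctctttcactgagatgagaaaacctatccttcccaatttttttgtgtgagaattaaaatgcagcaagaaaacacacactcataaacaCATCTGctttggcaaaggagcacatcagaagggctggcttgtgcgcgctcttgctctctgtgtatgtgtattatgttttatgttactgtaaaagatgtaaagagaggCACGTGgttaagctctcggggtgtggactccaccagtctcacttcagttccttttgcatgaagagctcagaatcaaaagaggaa
CD38: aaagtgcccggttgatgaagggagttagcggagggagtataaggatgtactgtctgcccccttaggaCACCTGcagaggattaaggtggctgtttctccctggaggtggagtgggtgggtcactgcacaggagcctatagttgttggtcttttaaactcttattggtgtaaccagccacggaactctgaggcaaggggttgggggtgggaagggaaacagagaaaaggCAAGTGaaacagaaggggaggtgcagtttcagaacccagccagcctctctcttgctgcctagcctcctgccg
CD44: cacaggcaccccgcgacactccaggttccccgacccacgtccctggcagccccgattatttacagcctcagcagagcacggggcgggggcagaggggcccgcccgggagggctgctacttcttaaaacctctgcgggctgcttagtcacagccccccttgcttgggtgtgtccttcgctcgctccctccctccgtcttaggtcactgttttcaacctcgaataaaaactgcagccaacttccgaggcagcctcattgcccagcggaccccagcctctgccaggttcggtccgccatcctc
CD2 and CD38 each held 2 E-boxes and CD44 held none. The first bases of the CD2 E-boxes lay at -141 (CATCTG) and -34 (CACGTG) from the start, and those of CD38 at -183 (CACCTG) and -22 (CAAGTG). CD27 also held 2, and the 4 CD8A windows, which have different starts, held 0, 4, 1 and 3. Of 35116 RefSeq windows of this length, 68.7% held at least 1 CANNTG, with a mean of 1.29, so an E-box in such a window is common. No window was at hand for CD4, CD5, CD6, CD7 and CD8B. These are matches of letters, and no binding was measured here.

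To ask how the genes responded to USP7 knock-down, both hairpins were first pooled and set against scrambled cells of the line. In Jurkat, 6 of 10 members were called, where 28% of 21288 genes were: CD2, CD4, CD7 and CD38 fell, and CD8A and CD44 rose. Over all genes 2633 were higher and 3332 lower, and with upper-quartile scaling 3323 and 2747. In HSB-2, 8 of 9 members tested were called, where 38.1% of 21113 genes were, and all 8 (CD2, CD5, CD6, CD7, CD8A, CD27, CD38 and CD44) rose. Markers of other cell types rose in HSB-2 as well: CD79A, PAX5 and EBF1, 3 of 3 B-lineage markers tested (by a median of 1.14 on the log2 scale), with NCAM1 and KRT18. PAX5 was at 0.665 ± 0.03 CPM (SD, n = 2) in scrambled, 2.44 ± 0.19 CPM in shRNA-4057 and 3.37 ± 0.29 CPM in shRNA-4058 cells, levels near those of CD2 and CD8A, and the other 4 stayed at or below 1.15 CPM in these groups. HSB-2 wild-type cells had 1.78 CPM of PAX5. CD79A, PAX5, EBF1 and KRT18 were called lower in scrambled than in wild-type HSB-2 cells, and NCAM1 was not called. The part of these markers in the result was not tested. CD8B, with at most 5 counts in any HSB-2 library, was not tested there. The median log2 fold change over the members was 0.06 in Jurkat and 0.96 in HSB-2, beside 0.02 and -0.02 over all genes tested. The Jurkat count rested on both scrambled libraries: it was 2 (CD4 and CD38) without replicate 1 and 3 (CD4, CD38 and CD44) without replicate 2. In HSB-2 it was 6 and 7 without scrambled replicate 1 or 2.

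The response itself differed between the lines for most members. The interaction of line and USP7 shRNA was called for 9 of 10 members, beside 37.7% of 22732 genes, with a more positive response in HSB-2 for 8 and a less positive one for CD44. The 8-group fit gave each hairpin's own change. In Jurkat, shRNA-4057 called 9 members (5 higher and 4 lower), where 50% of genes were called, and shRNA-4058 called 8 (3 higher and 5 lower), where 46.5% were. In HSB-2, shRNA-4057 called 8, all higher, where 43.6% of genes were called, and shRNA-4058 called 9, all higher, where 52.8% were. Both hairpins of a line share the scrambled libraries, and this fit holds only the spread between replicates.

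**Figure D2:**
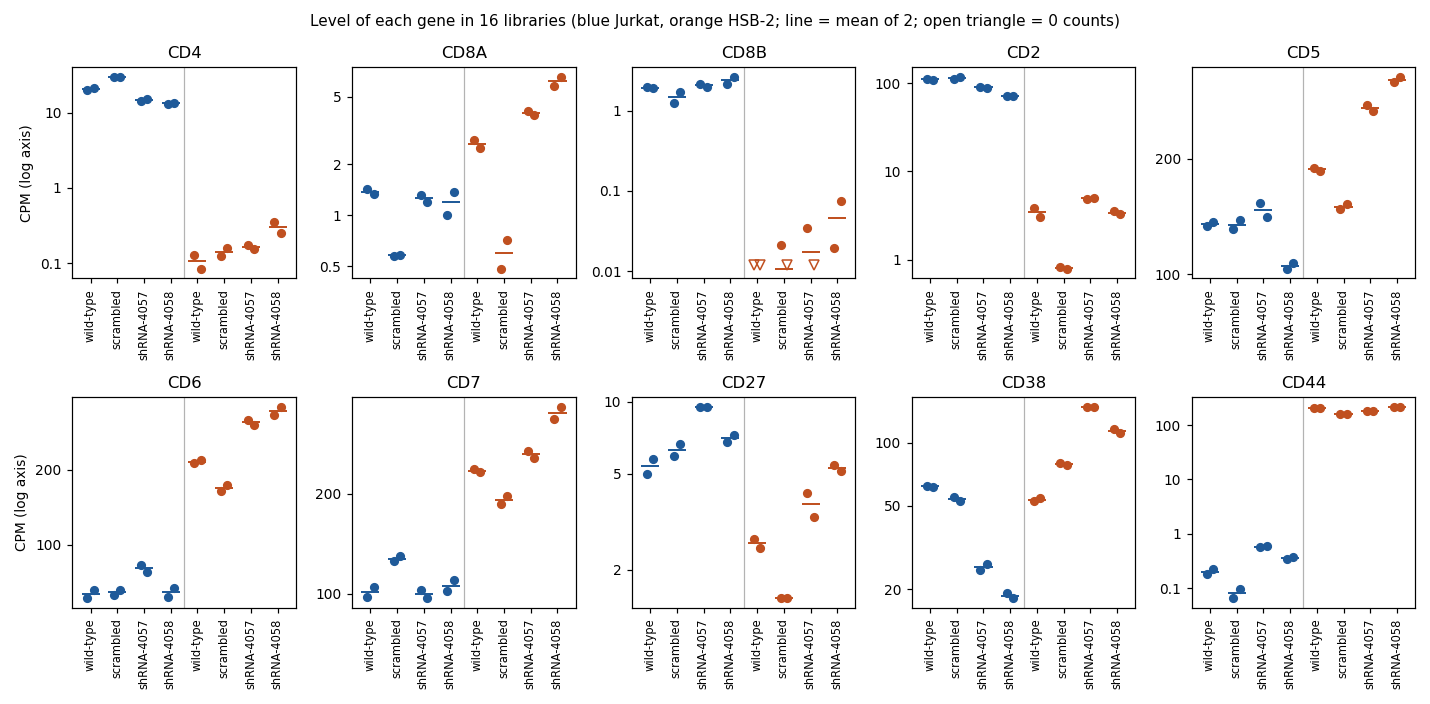
Level of each member in the 16 libraries, as TMM-normalized CPM on a log axis, with groups along the x axis, Jurkat in blue and HSB-2 in orange, a line at each mean of 2 and open triangles for 0 counts. CD38 falls with both hairpins in Jurkat and rises with both in HSB-2, and within HSB-2, CD8A and CD2 are lowest in scrambled cells.

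Among the coreceptors, CD4 fell and CD8A rose in Jurkat. CD4 (chromosome 12, 6896024 to 6929965, plus strand, GRCh37) was at 29.5 and 29.6 CPM in Jurkat scrambled cells, 14.3 and 15.3 CPM with shRNA-4057 and 13.1 and 13.5 CPM with shRNA-4058. The 4 shRNA libraries were lower than either scrambled library and also lower than the wild-type ones (20.1 and 21.3 CPM). The pooled log2 fold change was -1.05 ± 0.08 (SE, adjusted p = 3.0e-04), and against wild-type cells it was -0.53 ± 0.09 (adjusted p = 0.016). In HSB-2, CD4 had 8 to 74 counts per library and was at 0.123 and 0.159 CPM in scrambled, 0.175 and 0.155 CPM in shRNA-4057 and 0.356 and 0.252 CPM in shRNA-4058 cells. Only shRNA-4058 differed from scrambled cells there (log2 1.22 ± 0.235, adjusted p = 1.2e-04), and not once its replicate 1 was left out (0.83, adjusted p = 0.099).

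CD8A (chromosome 2, 87011733 to 87035519, minus strand), the chain that can pair with itself or with CD8B, rose against scrambled cells in both lines. In HSB-2 it was at 0.482 and 0.717 CPM in scrambled, 4.11 and 3.90 CPM in shRNA-4057 and 5.81 and 6.55 CPM in shRNA-4058 cells, and wild-type cells, at 2.79 and 2.50 CPM, lay between. The pooled change was 3.09 ± 0.29 (adjusted p = 5.9e-05) against scrambled cells and 0.93 ± 0.22 (adjusted p = 0.018) against wild-type cells. In Jurkat it was at 0.575 and 0.582 CPM in scrambled cells, 1.32 and 1.20 CPM with shRNA-4057 and 1.01 and 1.37 CPM with shRNA-4058. The Jurkat shRNA values overlapped those of wild-type cells (1.42 and 1.33 CPM), and the pooled change of 1.10 ± 0.20 (adjusted p = 0.0065) against scrambled cells was -0.14 ± 0.17 (adjusted p = 0.65) against wild-type cells. The Jurkat change was thus seen only against scrambled cells, of the 2 controls.

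CD8B (chromosome 2, 87042462 to 87089047, minus strand) was at 1.24 and 1.74 CPM in Jurkat scrambled, 2.15 and 2.00 CPM in shRNA-4057 and 2.17 and 2.63 CPM in shRNA-4058 cells. All 4 shRNA libraries were above both scrambled ones, and the pooled change of 0.61 ± 0.20 missed the threshold (adjusted p = 0.051). Against wild-type cells (1.97 and 1.92 CPM) it was 0.23 ± 0.16 (adjusted p = 0.38). CD8B has a near-identical gene copy, and how the counting divided such reads is not stated, so its level is uncertain. In HSB-2, 0 to 5 counts per library allowed no comparison.

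Of the adhesion and costimulatory receptors, CD2 moved in opposite directions in the lines. CD2 (chromosome 1, 117297052 to 117311851, plus strand), which binds CD58 and CD48, was at 110 and 117 CPM in Jurkat scrambled cells, 90.2 and 89.0 CPM with shRNA-4057 and 71.2 and 72.1 CPM with shRNA-4058. Its pooled change was -0.47 ± 0.11 (adjusted p = 0.019), and -0.42 against wild-type cells, which missed the threshold (adjusted p = 0.056). In HSB-2 it was at 0.819 and 0.786 CPM in scrambled, 4.91 and 4.96 CPM in shRNA-4057 and 3.51 and 3.29 CPM in shRNA-4058 cells. The pooled rise was 2.38 ± 0.225 (adjusted p = 6.8e-05), but wild-type cells had 3.87 and 3.04 CPM and overlapped with shRNA-4058, and against them the change was 0.26 ± 0.21 (adjusted p = 0.40). With shRNA-4057 alone, both libraries were above both wild-type ones (0.47 ± 0.08, adjusted p = 7.9e-05). The difference of the effect between lines, 2.87 ± 0.24 on the log2 scale (adjusted p = 2.1e-06), was taken against scrambled cells.

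CD27 (chromosome 12, 6554121 to 6560884, plus strand), a TNF receptor family member that binds CD70, was at 1.52 and 1.53 CPM in HSB-2 scrambled cells, 4.17 and 3.32 CPM with shRNA-4057 and 5.44 and 5.14 CPM with shRNA-4058. All 4 shRNA libraries were above the wild-type ones as well (2.69 and 2.47 CPM), and the pooled change was 1.57 ± 0.21 (adjusted p = 4.6e-04) against scrambled and 0.80 ± 0.20 (adjusted p = 0.021) against wild-type cells. In Jurkat it was at 5.96 and 6.63 CPM in scrambled, 9.54 and 9.53 CPM in shRNA-4057 and 6.80 and 7.26 CPM in shRNA-4058 cells. There shRNA-4057 raised it (0.60 ± 0.10, adjusted p = 3.0e-05), while shRNA-4058 gave 0.16 ± 0.10 (adjusted p = 0.22), and after correction for GC content and length 0.29 (adjusted p = 0.012). Against wild-type cells (4.99 and 5.78 CPM) it was called higher with shRNA-4057 (0.83 ± 0.10, adjusted p = 7.4e-07) and shRNA-4058 (0.39 ± 0.10, adjusted p = 0.0048). The pooled Jurkat change missed the threshold against scrambled (0.42 ± 0.17, adjusted p = 0.10) and wild-type cells (0.65 ± 0.18, adjusted p = 0.062). Of the exons of CD27, 562 bases overlap the antisense gene CD27-AS1, and with the strand setting of the counting not stated its reads may not all be its own.

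The scavenger receptor family pair, CD5 and CD6, rose in HSB-2 with both hairpins. CD5 (chromosome 11, 60869961 to 60895324, plus strand), which dampens T-cell receptor signals, went from 148 and 152 CPM in HSB-2 scrambled cells to 277 and 267 CPM with shRNA-4057 and 318 and 327 CPM with shRNA-4058. CD6 (chromosome 11, 60739152 to 60787849, plus strand), the receptor for ALCAM, went from 165 and 173 to 317 and 301 and then 331 and 357 CPM in the same order. Neither overlapped with wild-type cells (189 and 186 CPM for CD5, 212 and 218 CPM for CD6). The pooled changes were 0.99 ± 0.09 for CD5 (adjusted p = 4.7e-05) and 0.96 ± 0.07 for CD6 (adjusted p = 2.1e-05), and against wild-type cells 0.66 ± 0.09 and 0.60 ± 0.07 (adjusted p = 0.0014 and 8.6e-04).

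In Jurkat the same pair split by hairpin. CD5 was at 131 and 138 CPM in scrambled, 154 and 141 CPM in shRNA-4057 and 103 and 107 CPM in shRNA-4058 cells. It fell with shRNA-4058 (-0.36 ± 0.04, adjusted p = 1.5e-07) and was slightly higher with shRNA-4057 (0.13 ± 0.04, adjusted p = 0.010), a call that was lost without scrambled replicate 1 (0.089, adjusted p = 0.15) or without shRNA-4057 replicate 1 (0.067, adjusted p = 0.27). CD6 was at 63.2 and 66.4 CPM in scrambled, 82.9 and 78.2 CPM in shRNA-4057 and 61.9 and 67.6 CPM in shRNA-4058 cells. It rose with shRNA-4057 (0.32 ± 0.05, adjusted p = 1.2e-05). With shRNA-4058 its level overlapped that of scrambled cells, and it was called higher only after correction for GC content and length (0.20, adjusted p = 3.4e-06). Pooled over hairpins, CD5 (-0.07 ± 0.16) and CD6 (0.19 ± 0.12) did not pass the test.

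CD7 (chromosome 17, 80272744 to 80275484, minus strand), an immunoglobulin family receptor that marks nearly all T-ALL, rose in HSB-2 from 186 and 198 CPM in scrambled cells to 270 and 257 CPM with shRNA-4057 and 336 and 367 CPM with shRNA-4058. The pooled change was 0.68 ± 0.13 (adjusted p = 0.0039), and against wild-type cells (237 and 233 CPM) it was 0.38 ± 0.13 (adjusted p = 0.068). In Jurkat it was at 125 and 130 CPM in scrambled, 103 and 96.9 CPM in shRNA-4057 and 102 and 110 CPM in shRNA-4058 cells, and the wild-type libraries, at 97.9 and 105 CPM, overlapped with the shRNA libraries. The pooled Jurkat change of -0.29 ± 0.07 (adjusted p = 0.017) was -0.10 (adjusted p = 0.40) after correction for GC content and length and 0.05 (adjusted p = 0.69) against wild-type cells.

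CD38 was called in opposite directions in the lines, against either control. CD38 (chromosome 4, 15779898 to 15854855, plus strand), an ectoenzyme that consumes NAD, was at 55.0 and 52.9 CPM in Jurkat scrambled cells, 24.7 and 26.5 CPM with shRNA-4057 and 19.1 and 18.1 CPM with shRNA-4058. The HSB-2 levels were 80.3 and 78.2 CPM in scrambled cells, 149 and 149 CPM with shRNA-4057 and 117 and 112 CPM with shRNA-4058. In neither line did the shRNA libraries overlap with the scrambled or the wild-type libraries (62.3 and 61.5 CPM in Jurkat, 52.8 and 54.4 CPM in HSB-2). The pooled change was -1.26 ± 0.15 in Jurkat (adjusted p = 0.0013) and 0.74 ± 0.13 in HSB-2 (adjusted p = 0.0019). Against wild-type cells it was -1.46 ± 0.15 and 1.29 ± 0.13 (adjusted p = 0.0045 and 5.6e-04). The difference between lines was 2.02 ± 0.22 on the log2 scale (adjusted p = 1.7e-05).

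CD44 (chromosome 11, 35160429 to 35253949, plus strand) was near its floor in Jurkat, with 6 and 9 counts in scrambled, 64 and 62 in shRNA-4057 and 44 and 44 in shRNA-4058 libraries. These were 0.0651 and 0.0952, 0.562 and 0.602, and 0.347 and 0.373 CPM, so the shRNA libraries were above both scrambled and both wild-type libraries (0.180 and 0.222 CPM) but at a low level. The pooled change was 2.55 ± 0.41 (adjusted p = 0.0043) against scrambled cells, 2.30 without scrambled replicate 1 (adjusted p = 0.051), and 1.26 ± 0.34 (adjusted p = 0.064) against wild-type cells. In HSB-2, where CD44 was abundant, it was at 158 and 159 CPM in scrambled, 182 and 180 CPM in shRNA-4057 and 215 and 220 CPM in shRNA-4058 cells, and wild-type cells had 205 and 208 CPM. The HSB-2 change of 0.33 ± 0.09 (adjusted p = 0.016) was -0.06 ± 0.09 (adjusted p = 0.67) against wild-type cells.

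**Figure D3:**
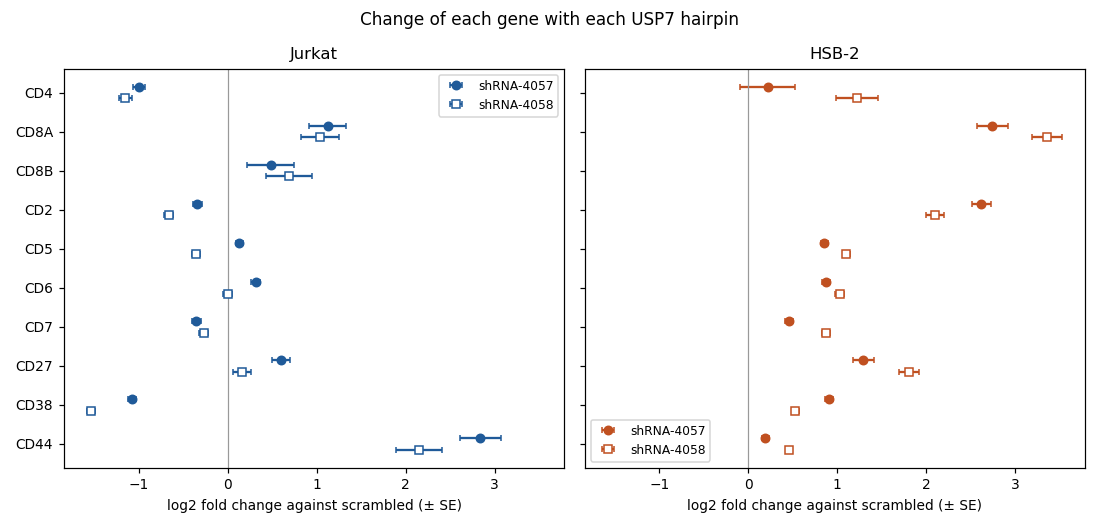
Log2 fold change against scrambled cells (x axis, error bars are SE from the fit of 8 groups) for shRNA-4057 (filled circles) and shRNA-4058 (open squares) in each line. In HSB-2 every point is right of 0, and in Jurkat CD4, CD2, CD7 and CD38 are left of 0 with both hairpins while CD8A, CD8B, CD27 and CD44 are right of it.

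The scrambled cells themselves differed from wild-type cells. In Jurkat, 5 members were called, where 25.9% of genes were, with CD4 and CD7 higher in scrambled cells and CD8A, CD38 and CD44 lower. In HSB-2, 8 were called, where 34.1% of genes were, with CD38 higher and CD2, CD5, CD6, CD7, CD8A, CD27 and CD44 lower. The log2 fold change of scrambled against wild-type cells was -2.15 ± 0.10 for CD2 and -2.15 ± 0.17 for CD8A in HSB-2, and -1.25 ± 0.21 for CD8A in Jurkat. The choice of control therefore bears on the counts: against wild-type cells, pooled USP7 shRNA gave 2 called members in Jurkat (CD4 and CD38, both lower) and 5 in HSB-2 (CD5, CD6, CD8A, CD27 and CD38, all higher). Calls over all genes were fewer against wild-type cells too, at 8.41% of 21381 genes in Jurkat and 25.1% of 19988 in HSB-2. For these members the direction was the same against both controls. Transduction, selection and the scrambled sequence cannot be told apart here.

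**Figure D4:**
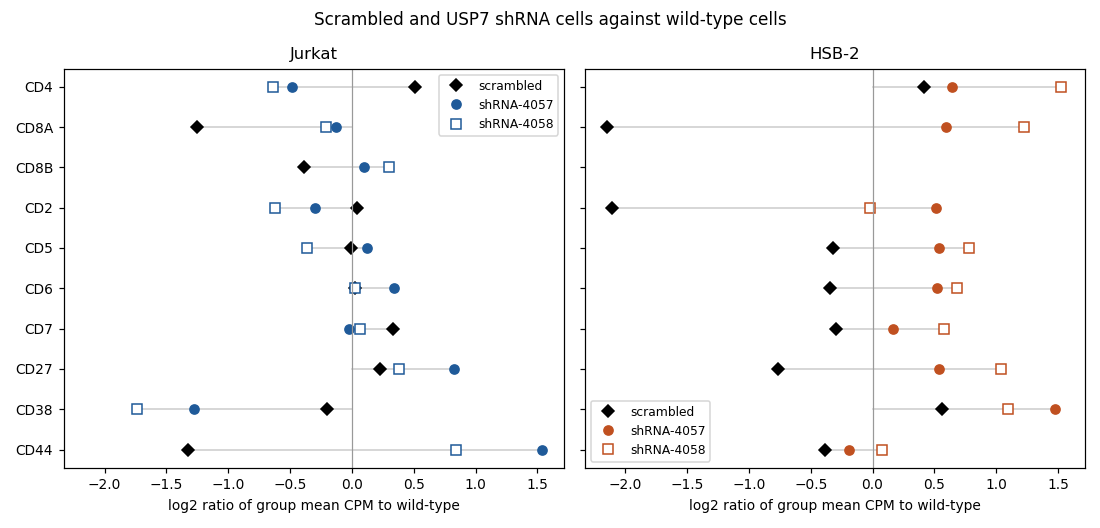
Log2 ratio of the group mean CPM to that of wild-type cells of the same line, for scrambled cells (black diamonds), shRNA-4057 (filled circles) and shRNA-4058 (open squares), without CD8B in HSB-2. The diamond for CD8A and for CD2 in HSB-2 is far to the left, whereas for CD38 both hairpins lie on 1 side of wild-type and of scrambled cells in each line.

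The hairpins also differed from each other. In Jurkat, 6 members were higher with shRNA-4057 than with shRNA-4058 (CD2, CD5, CD6, CD27, CD38 and CD44), where 33.9% of genes were called. CD5 differed most precisely, by 0.49 ± 0.04 (adjusted p = 1.8e-09), and CD4 did not pass the test (0.15 ± 0.07, adjusted p = 0.12). In HSB-2, 9 members were called, where 24.8% of genes were, with CD2 (0.52 ± 0.09) and CD38 (0.38 ± 0.04) higher with shRNA-4057 and the other 7 higher with shRNA-4058. Without HSB-2 shRNA-4057 replicate 2 the HSB-2 count was 6, with CD4, CD6 and CD27 no longer called. USP7 was lower with shRNA-4057 than with shRNA-4058 in Jurkat, whereas in HSB-2 their values were closer.

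Genes around the members were counted in the pooled comparisons, where the share of all genes called was 28% (Jurkat) and 38.1% (HSB-2), and counts near these shares, such as 4 and 5 of 11 cytoplasmic partners, do not set a list apart. Of the ligands, CD58, CD48 and CD70 rose in HSB-2 among 4 tested (by 0.67, 0.93 and 0.88 on the log2 scale), and in Jurkat ALCAM alone of 5 was called and fell by 0.69. Of 11 cytoplasmic partners, LCK, the kinase carried by CD4 and CD8, fell by 0.40 in Jurkat and rose by 0.33 in HSB-2. With it, TRAF5 and SIVA1 fell and MSN rose in Jurkat, and PSTPIP1, LCP2 and EZR rose and TRAF2 fell in HSB-2. Of these ligands and partners, scrambled cells were called higher than wild-type cells for ALCAM, LCK, SIVA1 and MSN in Jurkat. They were called lower for CD48, LCK, PSTPIP1, LCP2 and EZR in HSB-2. With shRNA-4058, Jurkat SIVA1 was at 91.5 CPM (wild-type 93.2 CPM). HSB-2 PSTPIP1 was at 23.6 CPM with it (wild-type 25.4 CPM). The median over the partners was -0.04 in Jurkat and 0.07 in HSB-2.

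Of 14 regulators of the coreceptor genes, 3 rose and 4 fell in Jurkat, and 8 rose and 2 fell in HSB-2. Against scrambled cells, RUNX1 (-0.35 and -0.50 in Jurkat and HSB-2) and MYB (-0.70 and -0.23) fell in both lines. IKZF1 (0.26 and 0.34) and ETS1 (0.35 and 0.65) rose in both, and TOX fell in Jurkat (-0.68) and rose in HSB-2 (0.17). Mean Jurkat IKZF1 with shRNA-4057 (498 CPM) and shRNA-4058 (460 CPM) was no higher than the wild-type mean (499 CPM). Scrambled cells had been called lower than wild-type cells for it. HSB-2 RUNX1 was called higher in scrambled than in wild-type cells. There shRNA-4057 (274 CPM) stayed above the wild-type mean (254 CPM), and shRNA-4058 (229 CPM) fell below it. In the remaining cases, both hairpin means lay on the stated side of wild-type. In all of these but Jurkat RUNX1, scrambled cells were called different from wild-type cells, on the opposite side. The margin was narrow for HSB-2 MYB with shRNA-4057 (290 ± 3.54 CPM, wild-type 294 ± 2.19 CPM, SD, n = 2). It was also narrow for HSB-2 TOX with shRNA-4058 (124 ± 0.849 CPM, wild-type 121 ± 2.83 CPM). RUNX3, which represses CD4 in cytotoxic cells, was at 246 ± 7.35 CPM (SD, n = 2) in HSB-2 scrambled cells and rose with both hairpins, to 527 ± 17.5 CPM (shRNA-4057) and 506 ± 21.7 CPM (shRNA-4058). HSB-2 wild-type cells had 347 CPM. In Jurkat the pooled change of RUNX3 was 0.32 (adjusted p = 0.25), and the hairpins differed. It was called higher with shRNA-4057 (70.9 CPM against 48.4 CPM in scrambled and 45.6 CPM in wild-type cells) but not with shRNA-4058 (47.6 CPM).

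By stage, 5 of 9 cortical genes fell in Jurkat, with a median of -0.57: CD1B, CD1C, CD1D, RAG1 and DNTT. RAG1 stood at 25.9 ± 0.51 CPM in scrambled, 3.56 ± 0.03 CPM in shRNA-4057 and 12.5 ± 0.20 CPM in shRNA-4058 cells. RAG1 was called higher in scrambled than in wild-type Jurkat cells, while CD1B, CD1C, CD1D and DNTT were not called there. In HSB-2, 3 cortical genes were tested and CD1C rose, which was lower in scrambled than in wild-type cells. Of the mature-stage genes, KLF2, a factor of quiescent T cells, rose by 2.13 in Jurkat and 2.47 in HSB-2, and S1PR1, which guides egress from the thymus (2.61 and 1.42), the lymph node homing receptor CCR7 (1.17 and 1.33) and CD52 (0.92 and 1.53) rose in both as well. IL7R fell in Jurkat, and CD28 rose in HSB-2. Scrambled cells had less KLF2 than wild-type cells in both lines, at 12.6 against 35.6 CPM in Jurkat and 2.73 against 5.83 CPM in HSB-2. The other rises share this low control: S1PR1 (14.2 against 39.6 CPM in Jurkat, 9.83 against 18.9 CPM in HSB-2), CD52 and CD28 (0.0495 against 0.396 CPM in HSB-2) were lower in scrambled than in wild-type cells of both lines, and CCR7 was in HSB-2. Of the early-precursor genes, LYL1 rose in both lines, and CD34, KIT and BCL11A fell in Jurkat. In HSB-2, LMO2 and BCL11A rose, and SPI1, at most 0.126 CPM in any HSB-2 group, was called lower. In the scrambled control, Jurkat CD34 and KIT and HSB-2 LMO2 and SPI1 were called above wild-type, and HSB-2 LYL1 and BCL11A below it. Mean Jurkat CD34 with shRNA-4058 (0.755 CPM) lay near the wild-type mean (0.822 CPM), and with shRNA-4057 it was lower (0.192 CPM). For KIT, LYL1, LMO2 and BCL11A, both hairpin means lay beyond wild-type on the stated side.

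**Figure D5:**
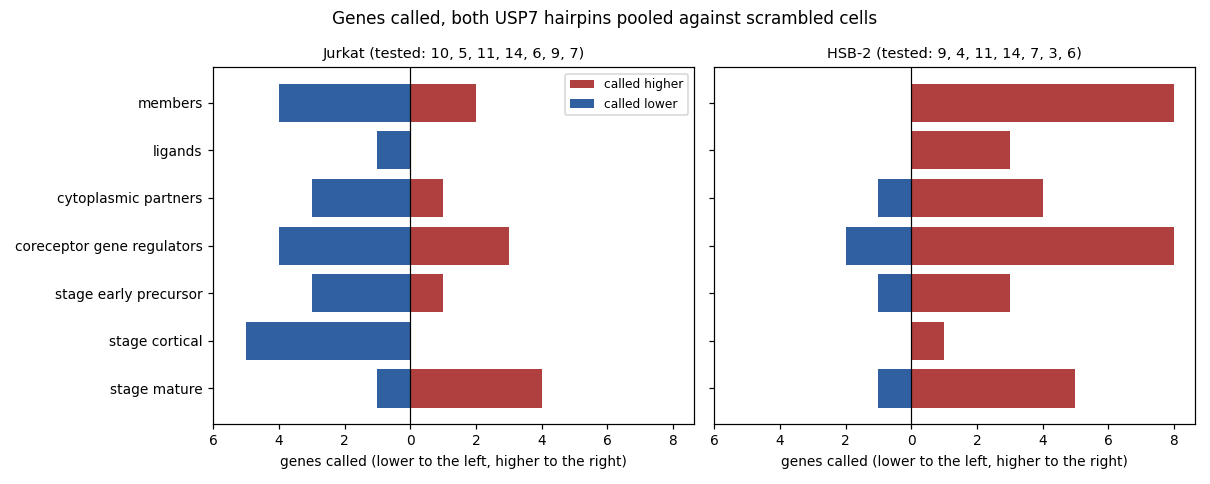
Number of genes called lower (left) and higher (right) in each list when both USP7 hairpins were pooled against scrambled cells, with the number tested in each list above the panel in the order of the rows. In Jurkat 4 members are lower and 2 higher, and in HSB-2 8 are higher.

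As a description of patterns, Pearson's r of log2(CPM + 0.1) over the 8 libraries of a line was taken between each member and 13724 genes in Jurkat or 13489 in HSB-2. These libraries form 4 groups, so high values arise for many genes. In Jurkat the closest genes were ACOX3 to CD38 (r = 0.9986), PGPEP1 to CD2 (0.998), RPL9 to CD4 (0.9974), SETD5 to CD5 (0.9955), MIDN to CD6 (0.9907), ATP5F1D to CD7 (0.9921), LINC-PINT to CD8A (0.9857), AGPAT3 to CD8B (0.9767) and GATD1 to CD27 (0.9927). In HSB-2 they were LSP1 to CD5 (0.9996), VIM to CD6 (0.999), EGR4 to CD8A (0.9983), TLE5 to CD7 (0.9964), IRF9 to CD2 (0.9949), DCPS to CD27 (0.9962) and ZNF217 to CD38 (0.9969).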

How the data were processed

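RNA-seq was analysed in 16 libraries, 2 for each of 8 groups taken from the labels. Per the labels and the study's methods, libraries were made from ribosome-depleted total RNA with a stranded kit and sequenced on NovaSeq. Reads were mapped by the authors with an in-house BWA pipeline (hg19) and counted them per gene with HTSeq 0.6.1p1, and the submitters' processing notes also name CASAVA and STAR. The deposited values are raw counts per gene, without normalization or pooling. The annotation release and strand setting of the counting are not given in the sources used here. The table pairs Ensembl IDs with no symbols, so symbols came from a gene name table, which matched 96.1% of 57820 IDs. Positions, lengths and GC content came from GENCODE release 44 mapped to GRCh37, the build of the counts.

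Counts were tested in R 4.3.3 with edgeR 4.0.16 (filterByExpr, TMM, quasi-likelihood F-test, Benjamini-Hochberg over all genes tested). The pooled fit of each line used 4 shRNA and 2 scrambled libraries, single hairpins and controls used all 16 as 8 groups, and the difference between lines was an interaction over the 12 shRNA and scrambled libraries. The SE of a log2 fold change is its size divided by the square root of F. Biological variation (BCV) was 4.2% in the fit of 16 libraries and 14.3% and 10.7% in the pooled fits of Jurkat and HSB-2. TMM factors ran from 0.882 to 1.15. A floor of 3 counts is the most that a count of 0 allows, and it covers counting error only. Counts of replicates varied beyond sampling noise in all 8 groups. The fits were tested on simulated counts. Alternatives were RLE and upper-quartile scaling, DESeq2 1.42.0, no filter, a correction for GC content and length (offset), a replicate block, other controls and leaving out each library. Single hairpins against wild-type cells were added after seeing the data. All members were named in every comparison, genes of a list where called, and the genes most like a member by the highest r. PECAM1, on the ligand list, was not analysed here, and some results that the lists and patterns gave are not reported here. The members and lists were chosen with earlier results of these data known.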

Additional observations from a re-analysis of the deposited data

Results flagged for a closer look

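A difference between the lines in the effect of USP7 shRNA, tested by the interaction term in edgeR over 12 libraries, drew attention to 9 members. Taken as HSB-2 less Jurkat on the log2 scale, the difference of the pooled effects was 2.87 for CD2 (adjusted p = 2.1e-06), 1.91 for CD4 (6.7e-04), 1.08 for CD5 (0.0010), 0.79 for CD6 (0.0010), 0.996 for CD7 (5.2e-04), 2.01 for CD8A (8.3e-04), 1.18 for CD27 (0.0053), 2.02 for CD38 (1.7e-05) and -2.19 for CD44 (8.6e-04). CD4 rests on 8 to 74 counts per library in HSB-2 and CD44 on 6 to 64 counts per library in Jurkat. Each effect was taken against the scrambled libraries of its line. Against wild-type cells, the pooled changes in Jurkat and HSB-2 were -0.42 and 0.26 for CD2, -0.53 and 1.12 for CD4, -0.07 and 0.66 for CD5, 0.22 and 0.60 for CD6, 0.05 and 0.38 for CD7, -0.14 and 0.93 for CD8A, 0.65 and 0.80 for CD27, -1.46 and 1.29 for CD38, and 1.26 and -0.06 for CD44, and the difference between lines was not tested against wild-type cells.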

How the results depend on the processing

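Of 1344 member values under the alternatives, 1265 kept direction and side of the threshold, 37 lost a call, 15 gained one and 27 changed sign, 16 of these with no call in either setting. With wild-type cells as control, signs changed for CD8A in Jurkat (shRNA-4057 -0.13, shRNA-4058 -0.22, pooled -0.14), CD7 in Jurkat (shRNA-4058 0.062, pooled 0.050), CD6 in Jurkat (shRNA-4058 0.028), CD44 in HSB-2 (shRNA-4057 -0.19, adjusted p = 2.1e-04 in edgeR, pooled -0.057) and CD2 in HSB-2 (shRNA-4058 -0.050). In Jurkat shRNA-4058 cells, CD6 was 0.0062 with RLE scaling, 0.083 with upper-quartile scaling, 0.0054 with DESeq2 and 0.20 after correction for GC content and length, which also gave 0.0083 for CD7, 0.064 for pooled CD5 and -0.038 for CD6 in scrambled against wild-type cells. CD38 between lines was 0.55 in scrambled cells. Leaving out 1 library at a time gave -0.066 to 0.076 for CD6 with shRNA-4058 in Jurkat, -0.12 to 0.32 for CD8A between the Jurkat hairpins, -0.011 to 0.082, -0.053 to 0.033 and -0.025 to 0.080 for CD2, CD5 and CD6 in Jurkat scrambled against wild-type cells, and -0.16 to 0.016 for pooled CD5 in Jurkat. The cause was not tested.

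Called members of the pooled Jurkat comparison numbered 6, and 10 with the hairpins as separate groups, 2 against wild-type cells and 2 to 6 without 1 library. In HSB-2 they numbered 8, and 5 against wild-type cells and 6 to 8 without 1 library. Over all genes, the pooled Jurkat count of 5965 was 11837, 1798, and 1873 or 1434 without scrambled replicate 1 or 2. That of HSB-2, 8049, was 12077, 5010, and 3801 or 4518. The HSB-2 hairpins differed in 5716 genes, and in 3713 without shRNA-4057 replicate 2. Upper-quartile scaling turned the Jurkat split of higher and lower genes from 5231 and 6296 to 6495 and 5028 for shRNA-4057 and from 4551 and 6167 to 5862 and 4927 for shRNA-4058. Group levels of the members moved by a median of 8.22% with library totals and 30.4% with the longest transcript, beside a median replicate CV of 4.14%.

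With the replicate number as a block (replicate block), 6 and 8 members were called in the pooled comparisons of Jurkat and HSB-2, as without it. The numbers share no stated source, and of 12 pairs of groups within a line 2 had replicate differences correlated over 0.1 (range -0.152 to 0.131). Depth limits CD8B in HSB-2, CD4 in HSB-2 and CD44 in Jurkat.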
